A study of Mus musculus with 8 samples.

Results

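The 6 genes described here, Slbp, Lsm10, Lsm11, Casp8ap2, Zfp473 and Npat, encode factors that make or act beside the 3′ ends of replication-dependent histone mRNAs. They were taken by exact gene symbol from a table of 25815 genes, and all 6 were found once each and passed the filter on low counts. The table holds counts of poly(A)+ RNA from the whole brains of 5 mice carrying the Cstf2 D50A allele (D50A) and 3 wild-type littermates (WT), all killed at 50 days without treatment. All 8 mice shared the C57BL/6NCrl strain background, in a colony backcrossed for 4 generations and then bred within itself. D50A replaces an aspartate with alanine in the RNA recognition motif of CSTF2, a cleavage stimulation factor subunit. The labels name neither sex nor batch, and the numbers given to libraries here only follow accession order.

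Most mRNAs are cleaved and given a poly(A) tail, whereas replication-dependent histone mRNAs are cleaved after a short stem-loop and end without a tail. SLBP binds the stem-loop, and the U7 small nuclear ribonucleoprotein, whose ring contains LSM10 and LSM11 in place of a pair of spliceosomal Sm proteins, pairs with the pre-mRNA downstream of the cleavage site. The protein FLASH, encoded by Casp8ap2, and LSM11 together recruit a cleavage module that contains CPSF subunits, symplekin and CSTF2, so that the mutated protein is a part of both kinds of 3′ end formation. In dividing cells SLBP accumulates in S phase, while most neurons of the adult brain no longer divide.

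The RNA elements bound by SLBP and by the ring with LSM10 and LSM11 are shown. The 6 factors act in or beside the process that uses these elements, and not all of them bind RNA there. The stem-loop was searched on the sense strand of the GENCODE M21 transcripts as GG, NN, CTTTT, N, AG, NN and CC in 1 run, N being any base. It was present in 124 of 141767 transcripts, or 0.0875%. Histone genes were taken as those whose symbols begin with Hist and a digit, H2af or H2bf, and other symbols were not counted. The stem-loop was present in 48 of their 105 transcripts. The 3 histone genes that hold it and had the highest mean level in these libraries are shown 5′ to 3′ with the 16 letters of the motif in capitals.
Hist1h1c: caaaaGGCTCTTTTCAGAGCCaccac
Hist3h2ba: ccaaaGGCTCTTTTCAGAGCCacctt
H2afx: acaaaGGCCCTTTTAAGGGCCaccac
In mm10 Hist1h1c lies on chromosome 13 (23738808 to 23740367), Hist3h2ba on chromosome 11 (58948920 to 58949533) and H2afx on chromosome 9 (44334694 to 44336077), all on the plus strand. In the annotated Hist1h1c transcript the motif starts at base 705, counted from 1 at the 5′ end, and 840 bases follow it. In H2afx it starts at base 547 and 822 bases follow, so these annotated transcripts run past the end that SLBP and U7 would produce. Of the 48 histone transcripts with the motif, 26 continue for more than 100 bases after it. The U7 snRNA gene Rnu7 lies on the minus strand of chromosome 6 in mm10 (124741225 to 124741286). Its 62 bases, from the same transcript set, carry the Sm-binding site on which the ring with LSM10 and LSM11 assembles, shown in capitals.
Rnu7: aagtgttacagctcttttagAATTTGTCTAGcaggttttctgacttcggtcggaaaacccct
U7 RNA itself was not analysed here. Summed over 37 stem-loop histone genes in the table, the level in CPM, a count scaled by library size, was 89.0, 83.6, 204, 85.6 and 84.8 in D50A 1 to 5, against 89.0, 88.9 and 78.1 in WT 1 to 3. D50A 3 was far above the rest, and the other 4 D50A libraries overlapped with WT.

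2 libraries of the D50A group stood apart. Mitochondrially encoded genes took 11.9% of the counts of D50A 3 and 4.08% to 5.14% of those of any other library. For D50A 3 set against the WT mean, the median log2 CPM difference was 1.17 for genes with a longest transcript under 2000 bp and -1.07 for those of 5000 bp or more. By GC content the median difference of D50A 3 was 0.39 for genes under 45% GC and -0.75 for genes of 55% or more. D50A 1 was low for genes of low GC content, with a median difference of -0.21 under 45% GC and of 0.14 at 55% or more. Cerebellar granule cell markers, 7 genes in sum, reached 97.3 CPM in D50A 1 and between 631 and 879 CPM in D50A 2 to 5, where WT held between 89.7 and 95.2 CPM. Total counts ran from 13675945 to 24802272 per library.

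No difference between the genotypes was detected for any of the 6 factors. By edgeR's quasi-likelihood test with Benjamini-Hochberg adjustment over 16810 genes, 0 of the 6 passed the threshold of 0.05, as did 0% of all genes tested, and 0 of the 6 had an unadjusted p under 0.05, against 2.5% of all genes. DESeq2 and limma-voom with sample quality weights also called 0 of the 6, against 0.238% and 3.08% of all genes. The D50A and WT levels overlapped for every one of the 6 genes, whereas for 7.45% of all genes the groups did not overlap. In simulated counts for this comparison of 16810 genes, edgeR found 2% of the genes altered 1.5-fold, 10% of those altered 2-fold and 80% of those altered 4-fold, so most small differences would be missed. The altered genes were drawn only from levels above those of Lsm10 and Zfp473, so these shares do not cover Lsm10 or Zfp473. Each gene was simulated on its own, without a shift of a library shared by many genes. The libraries are bulk tissue, in which fewer cells of a type and less RNA per cell cannot be told apart.

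**Figure D1:**
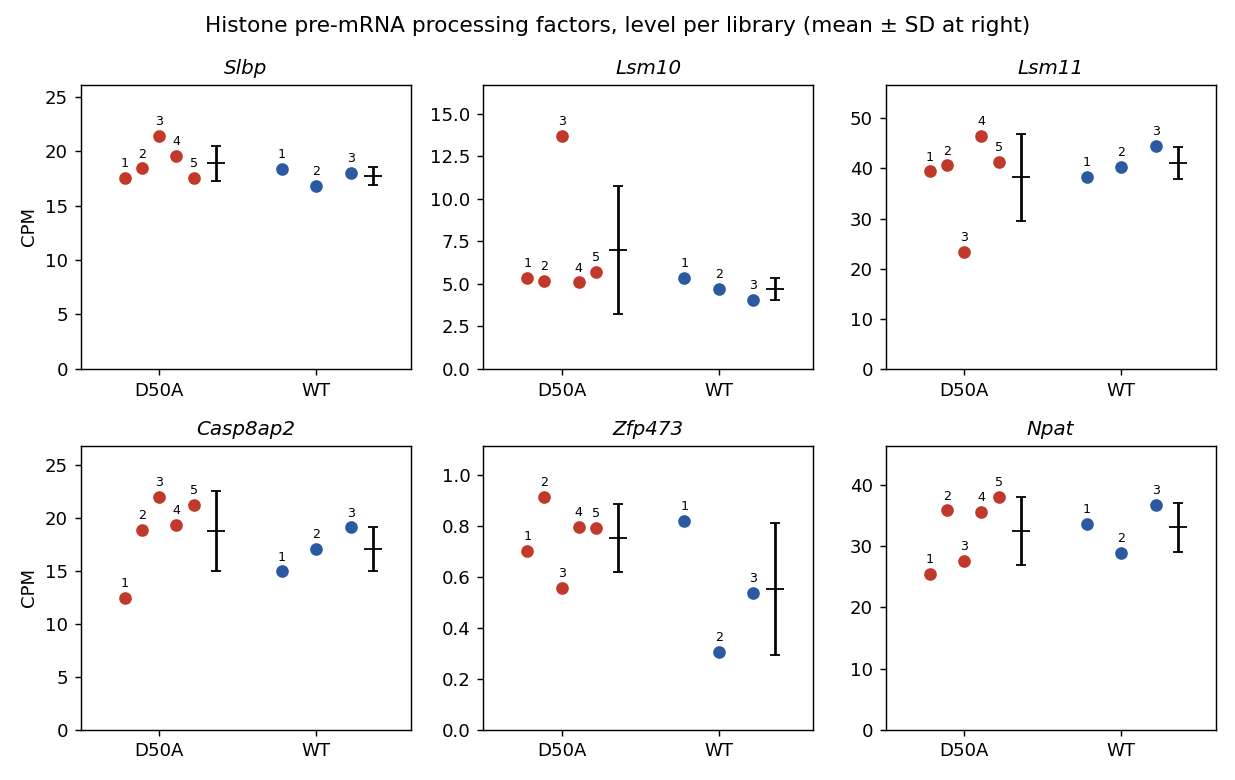
Level of each of the 6 genes in CPM (linear axis from 0), with 5 D50A libraries at left and 3 WT libraries at right; each point is a library with its number, and the bar beside each group is the mean ± SD. The groups overlap in every panel, and D50A 3 stands apart at 13.7 CPM for Lsm10 and 23.3 CPM for Lsm11.

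Slbp, which encodes the stem-loop binding protein, was the steadiest of the 6. Slbp (ENSMUSG00000004642) is a protein-coding gene on the minus strand of chromosome 5 (33634952 to 33652574 in mm10). Its level was 17.6, 18.4, 21.4, 19.5 and 17.5 CPM in D50A 1 to 5, against 18.4, 16.8 and 18.0 CPM in WT 1 to 3. D50A 3 was the highest and WT 2 the lowest, and the other 6 libraries lay between 17.5 and 19.5 CPM. The fitted log2 fold change was 0.090 (SE 0.13, edgeR adjusted p = 0.84), with a 95% interval from 0.87-fold to 1.3-fold, and it was 0.052 without D50A 3. The coefficient of variation over the 8 libraries was 7.76%, and 5.1% of all genes tested had a smaller one, where the median gene was at 26.8%. The 231 to 451 counts behind each value gave, for D50A 3, an exact Poisson interval of 18.7 to 24.3 CPM, which covers counting error only. The unclassified antisense gene Gm10459 overlaps 474 bp, or 7.8%, of the annotated Slbp exons; the sources used here do not say whether counting used strand, so reads there cannot be told apart.

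Lsm10 and Lsm11 encode the subunits that set the U7 ring apart from the spliceosomal Sm ring. Lsm10 (ENSMUSG00000050188, plus strand of chromosome 4, 126096623 to 126098584 in mm10) is the shortest gene of the set, with 943 bp of exon. Its level was 5.33, 5.17, 13.7, 5.09 and 5.69 CPM in D50A 1 to 5, against 5.34, 4.71 and 4.04 CPM in WT 1 to 3. D50A 3 lay far above all others, and the other D50A libraries overlapped with WT 1. On the log2 scale the fold change was 0.56 (SE 0.37, edgeR adjusted p = 0.84), with a 95% interval from 0.818-fold to 2.64-fold. Without D50A 3 it was 0.19, and without D50A 1 and D50A 3 it was also 0.19, with a 95% interval from -0.12 to 0.49 (edgeR adjusted p = 0.48).

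Lsm11 (ENSMUSG00000044847, minus strand of chromosome 11, 45928269 to 45944935 in mm10) has 6453 bp of exon, and its protein extends beyond the ring to bind FLASH. The level of Lsm11 was 39.4, 40.6, 23.3, 46.5 and 41.3 CPM in D50A 1 to 5, against 38.3, 40.3 and 44.5 CPM in WT 1 to 3. D50A 3 was the lowest library, and the other 4 D50A libraries overlapped with WT. Lsm11 had a log2 fold change of -0.10 (SE 0.22, edgeR adjusted p = 0.86), with a 95% interval from 0.662-fold to 1.31-fold. The sign turned to 0.042 without D50A 3 and to 0.078 without D50A 1 and D50A 3, where the interval ran from 0.947-fold to 1.18-fold.

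Both proteins enter the same ring, and the ratio of their mRNAs stood apart in D50A 3. Per kb of exon, Lsm10 over Lsm11 was 0.926, 0.871, 4.02, 0.749 and 0.942 in D50A 1 to 5, against 0.954, 0.8 and 0.62 in WT 1 to 3. D50A 3 was above all others, and the rest of the D50A group lay within the WT range. The mean log2 ratio was 0.24 ± 0.997 (SD, n = 5) in D50A and -0.36 ± 0.31 (SD, n = 3) in WT (exact permutation test over libraries, two-sided, p = 0.32, where 0.0357 is the smallest this design can give). Without D50A 3 the difference in mean log2 ratio was 0.16, against 0.60 with it.

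**Figure D2:**
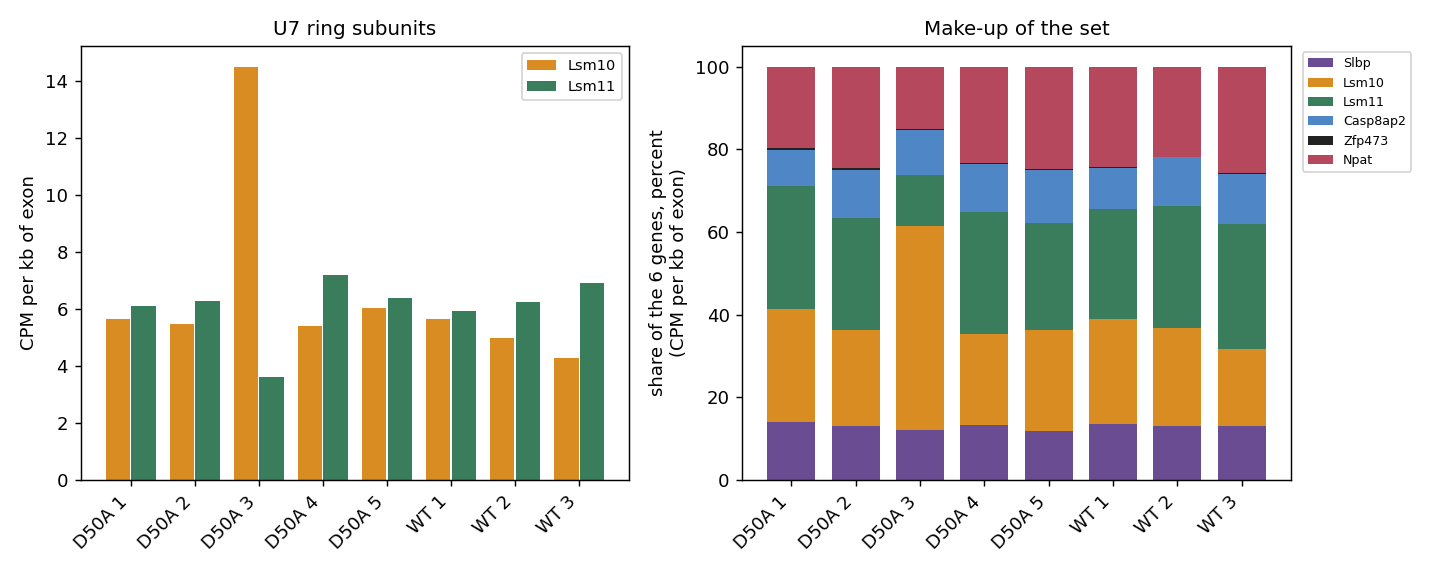
Left, Lsm10 and Lsm11 in CPM per kb of merged exon in each library, D50A before WT. Right, the share of each of the 6 genes in their summed CPM per kb; Lsm10 takes 49.5% in D50A 3 and no more than 27.4% elsewhere.

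Casp8ap2 encodes FLASH, which binds LSM11 and helps to recruit the cleavage module. Casp8ap2 (ENSMUSG00000028282, plus strand of chromosome 4, 32615451 to 32653265 in mm10) was at 12.5, 18.9, 22, 19.4 and 21.3 CPM in D50A 1 to 5, against 15, 17.1 and 19.1 CPM in WT 1 to 3. D50A 1 was the lowest of all 8 libraries, and D50A 3, D50A 4 and D50A 5 were above every WT library. Casp8ap2 had a log2 fold change of 0.14 (SE 0.20, 95% interval -0.32 to 0.60, edgeR adjusted p = 0.84). Without D50A 1 it was 0.28, and without D50A 1 and D50A 3 it was 0.24 with a 95% interval from 0.033 to 0.45 (edgeR unadjusted p = 0.026, adjusted p = 0.16). In that smaller comparison 22.2% of all genes had an unadjusted p under 0.05 and 6.42% passed the adjusted threshold, while 0 of the 6 factors passed. D50A 2, D50A 4 and D50A 5 also hold the high cerebellar granule cell markers given above, and the part of these cells in the Casp8ap2 level was not tested.

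Zfp473 encodes the zinc finger protein also called ZFP100, which links SLBP to the U7 particle through LSM11, and it was the least abundant member. Zfp473 (ENSMUSG00000048012, minus strand of chromosome 7, 44731480 to 44751050 in mm10) had 18, 18, 6, 15 and 16 counts in D50A 1 to 5, against 17, 6 and 9 counts in WT 1 to 3. Scaled, this was between 0.555 and 0.913 CPM across D50A and between 0.304 and 0.818 CPM across WT, so the groups overlapped. WT 2 was the lowest, and its exact Poisson interval of 0.111 to 0.661 CPM reached into the D50A range. Zfp473 had a log2 fold change of 0.45 (SE 0.34, edgeR adjusted p = 0.84), with a 95% interval from 0.8-fold to 2.33-fold. It was 0.86 without WT 1 and 0.15 without WT 2 (edgeR adjusted p = 0.97 and 0.93), so single WT libraries decide its size. The unadjusted p was 0.0387 by limma-voom, by which 20.3% of all genes had one under 0.05, and the adjusted p was 0.22. The Zfp473 exons share 205 bp, or 2.04%, with the antisense gene Vrk3.

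Npat encodes a substrate of cyclin E and CDK2 that activates histone gene transcription in the histone locus body, where the 3′ end factors also gather. Npat (ENSMUSG00000033054, plus strand of chromosome 9, 53537047 to 53574342 in mm10) was at 25.5, 35.8, 27.6, 35.5 and 38.1 CPM in D50A 1 to 5, against 33.7, 28.9 and 36.8 CPM in WT 1 to 3. D50A 1 and D50A 3 were the lowest of the 8 libraries, and D50A 2, D50A 4 and D50A 5 lay around the highest WT value. Npat had a log2 fold change of -0.026 (SE 0.18, edgeR adjusted p = 0.96), with a 95% interval from 0.741-fold to 1.3-fold. Its sign turned under DESeq2, limma-voom and both other scalings tried in edgeR, and it was 0.16 without D50A 1 and D50A 3 (edgeR adjusted p = 0.26).

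Npat is transcribed away from Atm, which encodes a DNA damage kinase. In GENCODE M21, 306 bp lie between their annotated starts, whereas the promoter windows follow RefSeq starts, which can differ. The RefSeq promoter window of Npat (GRCm38.p6, plus strand, chr9:53536797-53537096) is shown because its first 125 bases, in capitals, also belong to the Atm window on the other strand, and both genes were measured.
Npat: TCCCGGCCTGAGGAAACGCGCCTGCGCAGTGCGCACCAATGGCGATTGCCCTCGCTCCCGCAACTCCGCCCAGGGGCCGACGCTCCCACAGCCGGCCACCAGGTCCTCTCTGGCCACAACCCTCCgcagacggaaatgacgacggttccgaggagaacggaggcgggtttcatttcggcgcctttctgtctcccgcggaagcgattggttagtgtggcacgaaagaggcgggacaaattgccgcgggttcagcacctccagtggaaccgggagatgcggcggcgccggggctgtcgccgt
Atm was at 15.3, 26.6, 11.4, 30.5 and 31.3 CPM in D50A 1 to 5, against 22.4, 27.3 and 31.5 CPM in WT 1 to 3. D50A 1 and D50A 3 were lowest for both genes of the pair. Atm had a log2 fold change of -0.23 (SE 0.34, edgeR adjusted p = 0.84), and it was -0.053 without D50A 3 but 0.15 without D50A 1 and D50A 3. Npat over Atm in CPM was 2.42 in D50A 3 and between 1.16 and 1.67 in the other D50A libraries, against 1.06 to 1.5 in WT.

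**Figure D3:**
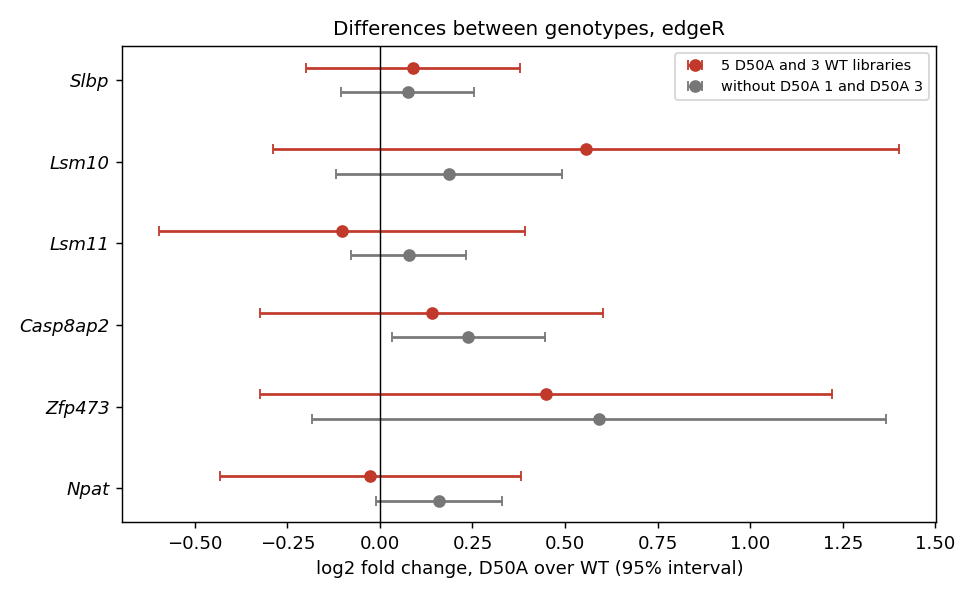
Log2 fold change of D50A over WT for each of the 6 genes, with its 95% interval from edgeR, for all 8 libraries (upper point of each pair) and without D50A 1 and D50A 3 (lower point). All 6 intervals include 0 with all libraries, and the Casp8ap2 interval runs from 0.033 to 0.45 without those 2.

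Scaled to merged exon length, Lsm10, Lsm11 and Npat were the most abundant of the 6 mRNAs, Slbp and Casp8ap2 were lower and Zfp473 was lowest by far. Lsm10 averaged 7.42 ± 3.98 CPM per kb across D50A (SD, n = 5) and 4.98 ± 0.69 across WT (SD, n = 3), Lsm11 5.92 ± 1.36 across D50A and 6.36 ± 0.495 across WT, and Npat 5.2 ± 0.894 across D50A and 5.3 ± 0.638 across WT. Slbp averaged 3.11 ± 0.267 CPM per kb across D50A and 2.92 ± 0.135 across WT, and Casp8ap2 2.75 ± 0.55 across D50A and 2.5 ± 0.305 across WT. Lsm10 and Npat overlapped in each genotype, as did Slbp and Casp8ap2, while Lsm11 lay above both Lsm10 and Npat in WT and overlapped with them in D50A. Zfp473 averaged 0.0748 ± 0.0132 CPM per kb across D50A and 0.055 ± 0.0257 across WT. The place of Slbp depends on the length used: its merged exons span 6076 bp, and with its longest transcript of 2922 bp it averaged 6.46 ± 0.555 CPM per kb across D50A and 6.07 ± 0.28 across WT, among the highest levels of the set.

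In D50A 3 and D50A 1 the members departed from WT to different degrees. In D50A 3 the log2 CPM difference from the WT mean was 1.53 for Lsm10, 0.27 for Slbp, 0.37 for Casp8ap2, 0.085 for Zfp473, -0.26 for Npat and -0.81 for Lsm11. Lsm10 has the shortest transcript of the 6 and the highest difference, beside a median of 1.17 for all genes under 2000 bp. The 4 genes with longest transcripts from 6062 to 9230 bp all lay above the median of -1.07 for genes of 5000 bp or more. Casp8ap2, with its 0.37 in D50A 3, lay close to the median of 0.39 for genes under 45% GC in that library. Slbp and Npat, also under 45% GC, lay below it. In D50A 1 the difference was -0.44 for Casp8ap2 and -0.37 for Npat, whose longest transcripts have 41% and 40.3% GC, beside a median of -0.21 for genes under 45% GC. Slbp, with 44.4% GC, differed by -0.013 in D50A 1. For genes from 45% to 55% GC the D50A 1 median was 0.016. In that range Lsm10, with 54.9% GC, differed by 0.19, Zfp473 by 0.37 and Lsm11 by -0.056. The part of transcript length and GC content in the members' levels was not tested.

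**Figure D4:**
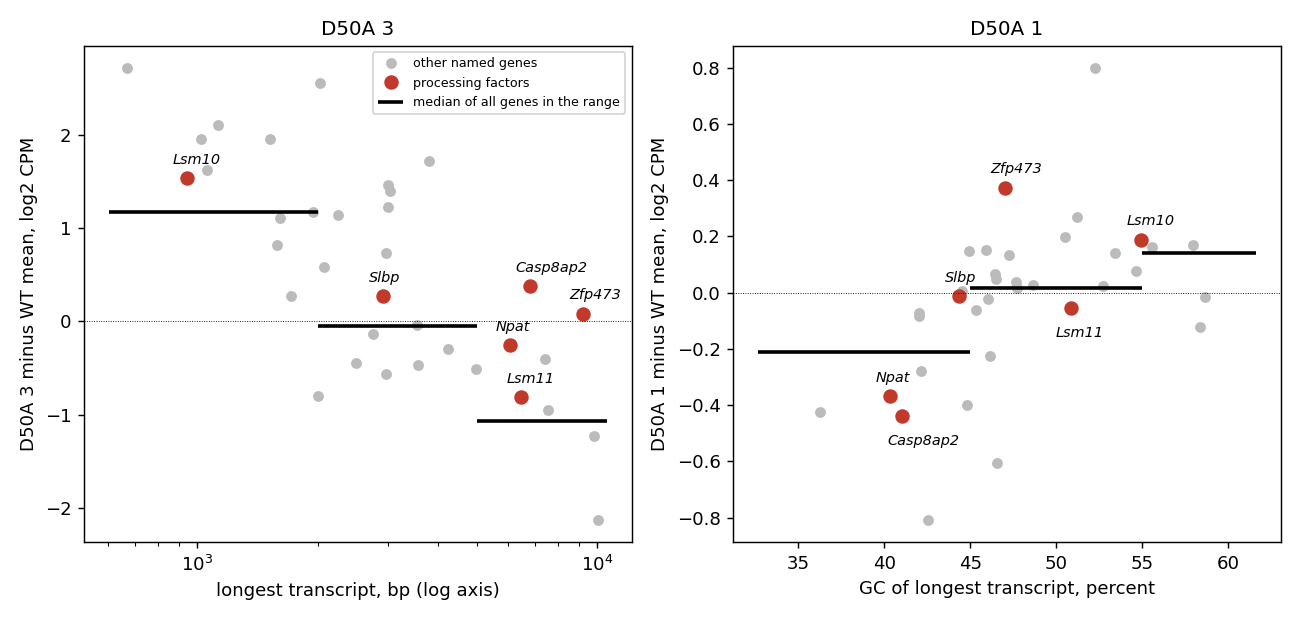
Left, difference of D50A 3 from the WT mean (log2 CPM) against the longest transcript in bp on a log axis; right, difference of D50A 1 against GC content in percent. Red points are the 6 factors, grey points the other named pathway genes and black lines the median of all genes with a mean log2 CPM above 2 in each range. Lsm10 is highest of the 6 in D50A 3 at 1.53, and Casp8ap2 and Npat are lowest in D50A 1 at -0.44 and -0.37.

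The partners of the 6 factors were described by 7 lists that with Atm held 75 other genes, of which 74 were tested. None of the 74 passed by edgeR over all genes (0% of all genes passed) and 0 had an unadjusted p under 0.05. None passed by limma-voom, nor did any of the 71 for which DESeq2 gave a p, which leaves out Snrpe, Lsm3 and Lsm5. The median log2 fold change of all genes was -0.012. The list of 9 cleavage and polyadenylation subunits had a median of -0.14, and -0.04 without D50A 3. It joins subunits of the histone cleavage module with polyadenylation factors such as Fip1l1. Cstf2 itself was at 105, 122, 65.8, 120 and 129 CPM in D50A 1 to 5, against 135, 126 and 122 CPM in WT 1 to 3, with D50A 3 far below the rest. This gave a log2 fold change of -0.23 (SE 0.22, edgeR adjusted p = 0.84), which was -0.088 without D50A 3 or -0.027 without D50A 1 and D50A 3. The allele changes the protein sequence, so a count does not check the labels. Its paralog Cstf2t was at 64.9 ± 4.95 CPM across D50A (SD, n = 5) and 69.8 ± 6.23 CPM across WT (SD, n = 3). Cpsf3, the endonuclease that cuts both kinds of pre-mRNA, was at 42.3 ± 5.32 CPM in D50A and 46.6 ± 1.9 CPM in WT, and Fip1l1, a polyadenylation factor, was at 57.1 ± 6.84 CPM in D50A and 65.1 ± 3.32 CPM in WT.

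The 5 Sm proteins that complete the U7 ring beside LSM10 and LSM11 had a median log2 fold change of 0.45, and all 5 were above the WT mean in D50A 3. Snrpe was at 122 CPM in D50A 3 but 17.6 to 21.7 CPM in the other 7 libraries. Snrpd3 was at 163 CPM there and 59.8 to 67.1 CPM in the other 7, and Snrpg was at 46.4 CPM there and 13.8 to 17.2 CPM in the other 7. Without D50A 3 the median of this list was 0.091. Snrpb had no overlap, at 54.0 to 62.3 CPM across D50A and 50.7 to 52.4 CPM across WT (log2 fold change 0.18, SE 0.12, edgeR adjusted p = 0.84), where 3.22% of all genes lay wholly above WT.

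The SMN and PRMT5 complexes load the ring onto U7 RNA, and their 12 genes had a median log2 fold change of 0.30, which was 0.051 without D50A 3. Gemin2 lay wholly above WT, at 7.16 to 14.7 CPM across D50A and 6.18 to 6.95 CPM across WT (log2 fold change 0.49, SE 0.26, edgeR adjusted p = 0.84). Of all genes, 3.22% lay wholly above WT. Without D50A 3, which held the 14.7 CPM, the log2 fold change of Gemin2 was 0.27, and without D50A 1 and D50A 3 it was 0.31. Gemin7 was at 76.0 CPM in D50A 3 but 18.5 to 24.3 CPM in the other 7, and Clns1a, a chaperone of Sm proteins, at 104 CPM in D50A 3 but 42.6 to 47.6 CPM in the other 7. Gemin4 was at 0.561 ± 0.179 CPM across D50A (SD, n = 5) and 0.406 ± 0.199 CPM across WT (SD, n = 3).

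Factors that trim, translate or degrade histone mRNA (15 tested) showed a median log2 fold change of 0.32, and 0.094 without D50A 3. Lsm6 and Lsm7, of the ring that binds the uridylated 3′ end in decay, lay wholly above WT, as did 3.22% of all genes. Lsm6 was at 40.0, 38.6, 119, 45.9 and 44.9 CPM in D50A 1 to 5, against 34.9, 35.2 and 37.8 CPM in WT 1 to 3. The fit gave 0.68 on the log2 scale (SE 0.4, edgeR adjusted p = 0.84). The value came to 0.25 without D50A 3, and to 0.28 without D50A 1 and D50A 3 (SE 0.07, edgeR adjusted p = 0.033). Lsm6 was one of 2 genes among the 74 to pass in that comparison, in which 6.42% of all genes passed. The D50A libraries kept there held 631 to 879 CPM of the cerebellar granule cell markers, against 89.7 to 95.2 CPM in WT. The part of these cells in the Lsm6 level was not tested. Lsm7 was at 30.2 to 31.9 CPM in 4 D50A libraries and 120 CPM in D50A 3, while WT held 27.5 to 28.1 CPM. Lsm3 was at 66.2 CPM in D50A 3 but 9.57 to 13.0 CPM in the other 7, and Lsm2 at 6.53 ± 1.56 CPM across D50A (SD, n = 5) and 5.2 ± 0.717 CPM across WT (SD, n = 3). The proteins of these 4 Lsm genes also form a ring that binds U6 snRNA.

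Regulators of histone gene transcription (9 tested) showed a median log2 fold change of -0.27, and -0.02 without D50A 3. E2f1, a transcription factor gene of S phase entry, lay below WT by a narrow margin, at 7.32 to 10.7 CPM across D50A and 10.7 to 12.4 CPM across WT. The fit gave -0.29 on the log2 scale (SE 0.16, edgeR adjusted p = 0.84), where 4.24% of all genes lay wholly below WT. The cyclin E genes that drive CDK2 towards NPAT had fold changes of opposite sign and did not pass the test. Ccne1 was at 10.5 ± 2.1 CPM across D50A (SD, n = 5) and 13.1 ± 0.876 CPM across WT (SD, n = 3). Ccne2 was at 12.5 ± 6.84 CPM in D50A and 8.72 ± 0.446 CPM in WT, with 24.2 CPM in D50A 3 but 6.46 to 11.9 CPM in the other 7. Without D50A 3 the log2 fold change of Ccne2 was 0.14, against 0.51 with it, and that of Ccne1 was -0.21, against -0.32. Kat5, an acetyltransferase gene, lay wholly above WT, as did 3.22% of all genes. Its level was 88.0 CPM in D50A 3 but 39.4 to 44.8 CPM in the other 7. Trrap, a cofactor gene with a longest transcript of 12479 bp that is named here after its values were seen, had 133 counts in D50A 3 and 3220 to 5507 in the other D50A libraries, against 3586 to 4966 in WT. Trrap was the second of the 74 to pass without D50A 1 and D50A 3 (log2 fold change -0.24, SE 0.07, edgeR adjusted p = 0.043). Cerebellar granule cell markers were high in every D50A library kept there, and their part in the Trrap level was not tested.

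The cap-binding complex, ARS2, NELF and P-TEFb genes (9 tested), which couple histone 3′ end formation to the cap and to elongation, showed a median log2 fold change of -0.046. Nelfe was at 40.2 CPM in D50A 3 but 17.4 to 20.9 CPM in the other 7, and Ncbp2 at 92.8 CPM in D50A 3 but 60.2 to 62.9 CPM in the other 7. Cdk9 was at 77.7 ± 14.0 CPM across D50A (SD, n = 5) and 88.3 ± 7.07 CPM across WT (SD, n = 3), and Ccnt1 was at 44.9 ± 7.74 CPM in D50A and 48.6 ± 3.04 CPM in WT. Genes of S phase and mitosis (14 tested) had a median of -0.024. Mki67, a marker of dividing cells, lay below WT by a narrow margin, at 1.02 to 4.25 CPM across D50A and 4.3 to 5.76 CPM across WT (log2 fold change -0.69, SE 0.36, edgeR adjusted p = 0.84). Of all genes, 4.24% lay wholly below WT. D50A 3 held the lowest Mki67 level, with 11 counts. With each library left out the log2 fold change of Mki67 ran from -0.85 to -0.48. Pcna, the replication clamp gene, was at 153 CPM in D50A 3 but 37.8 to 47.1 CPM in the other 7. Ccna2 was at 2.24 ± 0.329 CPM across D50A (SD, n = 5) and 2.98 ± 1.28 CPM across WT (SD, n = 3), and Mcm7 was at 17.9 ± 4.46 CPM in D50A and 15.4 ± 0.753 CPM in WT.

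Across the 8 libraries, the genes whose log2 CPM was most like that of each factor were Setmar and Hspb11 for Slbp (Pearson r of 0.957 and 0.952) and Rraga and Alad for Lsm10 (0.998 and 0.995). For Lsm11 they were Zfp346 and Gcfc2 (0.987 and 0.986), and for Casp8ap2 Pot1a and Yipf6 (0.986 and 0.979). For Zfp473 they were Hars2 and Zfp39 (0.94 and 0.876), and for Npat Sema3e and U2surp (0.972 and 0.96). These values describe the same 8 libraries and are the highest found among all genes with a mean log2 CPM above 2. D50A 3 held the highest level of the partners of Slbp, Lsm10 and Casp8ap2 and the lowest of those of Lsm11, and it lay within the range of the other libraries for the partners of Zfp473 and Npat. Without D50A 3 the coefficient was 0.988 for Rraga with Lsm10 and 0.844 for Zfp346 with Lsm11.

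Defining markers of neurons, astrocytes, oligodendrocytes, their precursors, microglia and endothelium were present in all libraries, and none of the markers listed was at 0 throughout. The sum of 5 oligodendrocyte markers was 9354 to 19135 CPM in D50A, highest in D50A 3, and 8528 to 9275 CPM in WT. The sum of 5 neuron markers was 3591 to 4009 CPM across D50A and 3713 to 3822 CPM across WT. The sum of 5 astrocyte markers was 1839 to 3024 CPM across D50A and 1777 to 1834 CPM across WT, and that of 5 erythroid genes was 306 to 2363 CPM across D50A and 354 to 524 CPM across WT, each highest in D50A 3. The part of these cell types in the members' levels was not tested.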

How the data were processed

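The values are whole-number read counts, deposited by the authors for 25815 genes without scaling, 1 column a library. The submitters' processing notes list STAR 2.5, HTSeq 0.6.1, CASAVA 1.8 and DESeq2 2, with mm10. The annotation release was not given in the sources used here, nor was the strand mode of counting. Groups came from the genotype labels. The labels give 1 library per mouse, so the spread behind each p-value is that between mice and their libraries.

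Counts were tested with edgeR 4.0.16 (R 4.3.3) after filterByExpr and TMM scaling, with no covariate and all 8 libraries. CPM was computed on TMM-scaled totals, with a prior count of 2 on the log2 scale. SE is the log2 fold change over the root of F. The fit was tested on simulated counts. Alternatives used DESeq2 1.42.0, limma-voom (limma 3.58.1), other scalings and filters, and left-out libraries. Positions, lengths and GC content came from GENCODE M21 (mm10), and promoter windows from RefSeq (GRCm38.p6), which held all 6 members. Exon length merges all annotated exons.

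The members, lists and tests were chosen with earlier results of these data known. Genes named are all members, Cstf2, Atm, the 4 genes of smallest unadjusted p in each list and the 2 genes most correlated with each member. Intervals from counts cover counting error only.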

Additional observations from a re-analysis of the deposited data

Results flagged for a closer look

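In 16 of 36 values examined over the 5 D50A libraries, 1 library lay far from the other 4 by Dixon's ratio (over 0.71). Dixon's ratio was taken on linear values, where a high library stands out more than a low one. Chance flags about 1 in 20 independent values. These 36 are not independent, and many of the genes were named for the smallest unadjusted p in their list. The share flagged among all genes is not given here, so the count is not a result about these genes. All 16 were D50A 3 and all 16 were high. Among the members these were Lsm10, at 13.7 CPM in D50A 3 where the other D50A libraries held 5.09 to 5.69 CPM, and the Lsm10 over Lsm11 ratio, at 4.02 and 0.749 to 0.942. Lsm11 itself was low in D50A 3, at 23.3 CPM against 39.4 to 46.5 CPM in the other D50A libraries, but was not flagged. Of the U7 ring and its assembly factors, D50A 3 held 122 CPM of Snrpe, 163 CPM of Snrpd3, 46.4 CPM of Snrpg, 14.7 CPM of Gemin2, 76.0 CPM of Gemin7 and 104 CPM of Clns1a. Of the decay ring it held 119 CPM of Lsm6, 120 CPM of Lsm7 and 66.2 CPM of Lsm3. It also held 40.2 CPM of Nelfe, 92.8 CPM of Ncbp2, 88.0 CPM of Kat5, 153 CPM of Pcna and 25.7 CPM of Mcm7. Mitochondrially encoded genes took 11.9% of the counts of that library, which also had a median log2 CPM difference from WT of 1.17 for genes under 2000 bp. Whether either has a part in these values was not tested.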

How the results depend on the processing

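No member passed under any alternative that gave it a value; Zfp473 had none under a filter of 1 CPM in 3 libraries. The counts of all genes called moved: 34 higher and 6 lower by DESeq2, 315 and 202 by limma-voom, 558 and 507 without D50A 1 and D50A 3, and 0 to 26 higher and 0 lower with each library left out, the 26 without D50A 1. Slbp, Lsm10, Casp8ap2 and Zfp473 stayed above 0 in every setting. Log2 fold changes with each library left out ran from 0.051 to 0.14 for Slbp, 0.19 to 0.67 for Lsm10, -0.18 to 0.042 for Lsm11, 0.052 to 0.28 for Casp8ap2, 0.15 to 0.86 for Zfp473 and -0.12 to 0.069 for Npat. Lsm11 was 0.067 by limma-voom and 0.078 without D50A 1 and D50A 3. Npat was 0.00098 with RLE scaling, 0.014 with upper quartile scaling, 0.0018 by DESeq2, 0.14 by limma-voom and 0.16 without D50A 1 and D50A 3. Atm was 0.096 and Ccnt1 0.037 by limma-voom, and Atm was 0.15 and Ccnt1 0.073 without D50A 1 and D50A 3. List medians moved by limma-voom to 0.11 for histone mRNA translation and decay and 0.065 for U7 assembly, which was 0.083 without D50A 1 and D50A 3. With each library left out they ran from -0.062 to 0.017 for cap and elongation factors, 0.094 to 0.45 for translation and decay, -0.29 to -0.020 for transcription regulators and 0.051 to 0.38 for U7 assembly, with the end nearest or past 0 without D50A 3. The cause was not tested. No paired analysis was possible because the labels give no pairing of the mice. Zfp473 is limited by 6 to 18 counts per library.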
